A study of Mus musculus with 38 samples.

Results

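Fragments of the lysine and histidine tRNAs were followed across sperm small RNA libraries of 38 mice. They were taken from the tRNA isoacceptors listed for each mouse among the reads matching the genome, as every entry whose name starts with tRNA-Lys- or tRNA-His-. An isoacceptor is the set of tRNAs that share an anticodon. Of the 54 isoacceptors with at least 1 read, 4 met this rule, namely tRNA-Lys-CTT, tRNA-Lys-TTT, tRNA-His-GTG and tRNA-His-ATG. tRNA-His-ATG had 1 read in each of 2 PRPR mice and none elsewhere, so that only the other 3 are described. These 3 had at least 10 reads in every mouse, as did 42 of the 54 isoacceptors.

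The mice were C57BL6/J males killed at 11 to 13 weeks, and sperm came from the epididymis. A group's name joins 2 diets, that of the dam through pregnancy and lactation (first 2 letters) and that given to the male from weaning, at 21 days, to its death (last 2 letters). CT is a control diet with 20% protein and PR a protein-restricted diet with 8%. There were 10 CTCT mice, which never met the restricted diet, 9 CTPR mice, 9 PRCT mice and 10 PRPR mice, each library being 1 mouse. Littermates were divided between the post-weaning diets, which gave 8 littermate pairs from CT dams (CTCT with CTPR) and 9 from PR dams (PRCT with PRPR). Groups follow the sample labels. For the littermates 47I1 (CTCT by its label) and 47I2 (CTPR by its label), the study's list of mice gives the opposite, and values with the pair exchanged are given where they matter. The reads matching the genome ranged from 4465281 to 7612603 per mouse. The class totals of mice 07C3, 35F2, 31A3 and 08G5 do not add up, and the calls are also given without these mice.

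A tRNA carries its amino acid to the ribosome and reads the messenger RNA with its anticodon. tRNA-Lys delivers lysine and tRNA-His delivers histidine, both of them basic amino acids. When a tRNA is cut at or near the anticodon loop, a 5′ and a 3′ fragment are released, and mature sperm are known to be rich in them, the 5′ fragments above all. tRNA-His is unusual in that a guanosine is added to its 5′ end after transcription. That guanosine is not in the genome, and the levels, shares and 5′ end percentages below count genome-matching reads only. Reads of tRNA-His that carry it may therefore be missed, and the extent of this was not tested.

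The histidine tRNA is shown as the part of its sequence that could be read here, since its 5′ portion is where most of its reads fell. The first 62 of the 72 bases of the gene n-THgtg7, at chr3:96452495-96452556 on the plus strand of GRCm38.p6 (the mm10 assembly), lie within a RefSeq promoter window of the neighbouring gene BC107364. They run 5′ to 3′ with the anticodon, bases 34 to 36, in capitals.
n-THgtg7: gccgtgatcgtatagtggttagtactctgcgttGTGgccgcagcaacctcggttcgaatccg
A cut in the anticodon loop releases the bases before the capitals, with or without the anticodon, as the 5′ fragment. Bases 51 to 61 match the B box, the internal promoter element of tRNA genes, whose consensus was searched on both strands and is held by 0.794% of the 32851 RefSeq promoter windows. The deposited counts do not say from which gene copy a read came.

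RefSeq lists 24 genes for tRNA-Lys-CTT on 12 chromosomes, 2 for tRNA-Lys-TTT, both on chromosome 13, and 10 for tRNA-His-GTG on chromosomes 2, 3 and 4. The lysine genes are 73 bases long and the histidine genes 72. Levels below are counts of fragment reads, with no correction for differences between isoacceptors in how their fragments enter a library. On GRCm38.p6, the genes of tRNA-Lys-TTT, n-TKttt23 (21907940 to 21908012) and n-TKttt22 (21971788 to 21971860), lie between annotated genes of GENCODE vM21. Of the tRNA-His-GTG genes, 6 are clustered on chromosome 3 between 96410069 and 96500437. No exon of another gene overlapped any of these tRNA genes, and 5 of the 24 tRNA-Lys-CTT genes and 3 of the 10 tRNA-His-GTG genes lay within introns, among them n-THgtg10 in Nfib.

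The members stood at very different levels. Over all 38 mice, tRNA-Lys-CTT was the 3rd most abundant isoacceptor, with 6962 ± 2906 reads per 1000000 genome-matching reads (RPM; SD, n = 38), after tRNA-Gly-GCC at 65877 and tRNA-Glu-CTC at 21612. tRNA-His-GTG ranked 9th with 1790 ± 1188 and tRNA-Lys-TTT 14th with 294 ± 190. Each was compared within mice with the isoacceptors next to it in this order (two-sided permutation test on log2 ratios with 100000 sign flips, adjusted over 6 pairs). The neighbours were picked from the same values, so the P values below are no separate support for the order. The flips also treat littermates as unrelated mice. tRNA-Lys-CTT was above tRNA-Gly-CCC in 23 of 38 mice, by 0.51 on the log2 scale (adjusted P = 0.0104). This order is that of all groups pooled, and in PRPR mice the mean of tRNA-Gly-CCC was the higher one (9818 against 7121 RPM), with tRNA-Lys-CTT above it in 5 of 10 mice. tRNA-His-GTG was below tRNA-Asp-GTC in most mice and above it in 11 of 38 (log2 difference −0.31, adjusted P = 0.00845). The remaining neighbours, tRNA-Glu-CTC, tRNA-Gln-CTG, tRNA-Val-TAC and tRNA-Cys-GCA, were separated from the members by at least 0.58 on the log2 scale, each with an adjusted P of 1.5e-05, which rests on the smallest P that these sign flips can give. Together the 3 members held 7.79% ± 2.06 (SD, n = 38) of the summed isoacceptor reads.

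Post-weaning protein restriction alone, the contrast of CTPR with CTCT, went with higher levels of tRNA-His-GTG and tRNA-Lys-TTT. In CTCT mice tRNA-His-GTG ranged from 411 to 1926 RPM, with a median of 1056, and in CTPR mice from 787 to 6381, with a median of 1890. The groups overlapped, but 4 of the 9 CTPR mice lay above the highest CTCT mouse, led by 49K3 at 6381 and 56I1 at 4731, as did 3 of 9 PRCT and 3 of 10 PRPR mice. The log2 fold change was 1.09 ± 0.36 (SE), a fold of 2.14 (edgeR quasi-likelihood test, P = 0.00407, adjusted P = 0.0715).

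tRNA-Lys-TTT ranged from 35.6 to 488 RPM in CTCT mice, with a median of 197, and from 146 to 755 in CTPR mice, with a median of 484. Here too 4 of 9 CTPR mice lay above the highest CTCT mouse and the rest within the CTCT range. The log2 fold change was 1.02 ± 0.39 (SE), a fold of 2.02 (edgeR quasi-likelihood test, P = 0.0115, adjusted P = 0.0715).

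tRNA-Lys-CTT, which delivers the same amino acid, ranged from 2475 to 10893 RPM in CTCT mice, with a median of 7082, and from 3171 to 13677 in CTPR mice, with a median of 8583. Only 2 of 9 CTPR mice were above the highest CTCT mouse. The log2 fold change of 0.37 ± 0.31 (SE) did not pass (edgeR quasi-likelihood test, P = 0.232, adjusted P = 0.313), and it turned negative when libraries were scaled on tRNA reads.

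**Figure D1:**
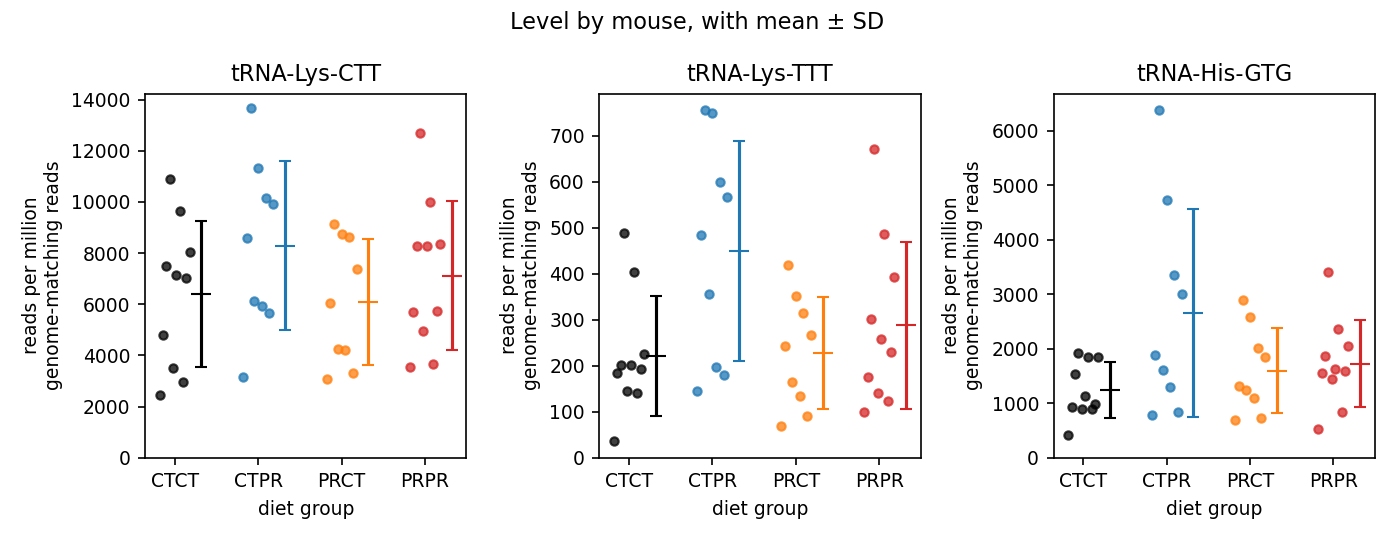
Reads per 1000000 genome-matching reads (RPM) of tRNA-Lys-CTT, tRNA-Lys-TTT and tRNA-His-GTG, with 1 point per mouse in each diet group and the mean ± SD beside the points. For tRNA-Lys-TTT and tRNA-His-GTG, 4 of the 9 CTPR mice stand above all CTCT mice, while 2 of 9 do so for tRNA-Lys-CTT. For tRNA-His-GTG, 3 of 9 PRCT and 3 of 10 PRPR mice do so too.

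Both calls held with 47I1 and 47I2 exchanged (log2 fold change of 1.14 for tRNA-His-GTG, P = 0.00276, and 0.82 for tRNA-Lys-TTT, P = 0.0431) and without the 4 mice with incomplete totals (1.03, P = 0.0123, and 0.88, P = 0.0320, in edgeR). They have to be read against the other tRNAs. In the same contrast 19 of 54 isoacceptors, 35.2%, passed a nominal P of 0.05, all of them higher in CTPR mice, and the median log2 fold change of the 54 was 0.71. 2 of the 3 members passed. None of the 54 passed after adjustment, either in edgeR or in DESeq2 with the same library sizes, in which 18 passed at the nominal level. tRNA-Gly-GCC, the most abundant tRNA in these libraries, was higher by 0.94 ± 0.38 (SE, nominal P = 0.0169 in edgeR). The summed isoacceptor reads were 9.57% ± 4.08 (SD, n = 10) of the genome-matching reads in CTCT mice and 15.9% ± 5.98 (SD, n = 9) in CTPR mice.

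Scaled on tRNA reads rather than on genome-matching reads, no member was higher at the nominal line. With the summed isoacceptor reads as library size, the median log2 fold change of all isoacceptors was 0.00, that of tRNA-His-GTG was 0.26 (P = 0.284) and that of tRNA-Lys-TTT 0.29 (P = 0.314). tRNA-Lys-CTT then stood at −0.41 (edgeR, P = 0.0543), and at −0.30 with TMM factors (edgeR, P = 0.0491, median of all isoacceptors 0.13). With TMM, 2 of the 54 isoacceptors passed the nominal line upwards and 3 downwards. With the size factors of DESeq2, tRNA-Lys-CTT stood at −0.42 (DESeq2, P = 0.000981, adjusted P = 0.0362), and the median of all isoacceptors was again near 0. In that fit 4 of the 54 passed the nominal line, all of them lower, and 3 passed after adjustment. The direction of tRNA-Lys-CTT in this contrast thus depended on the scale.

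**Figure D2:**
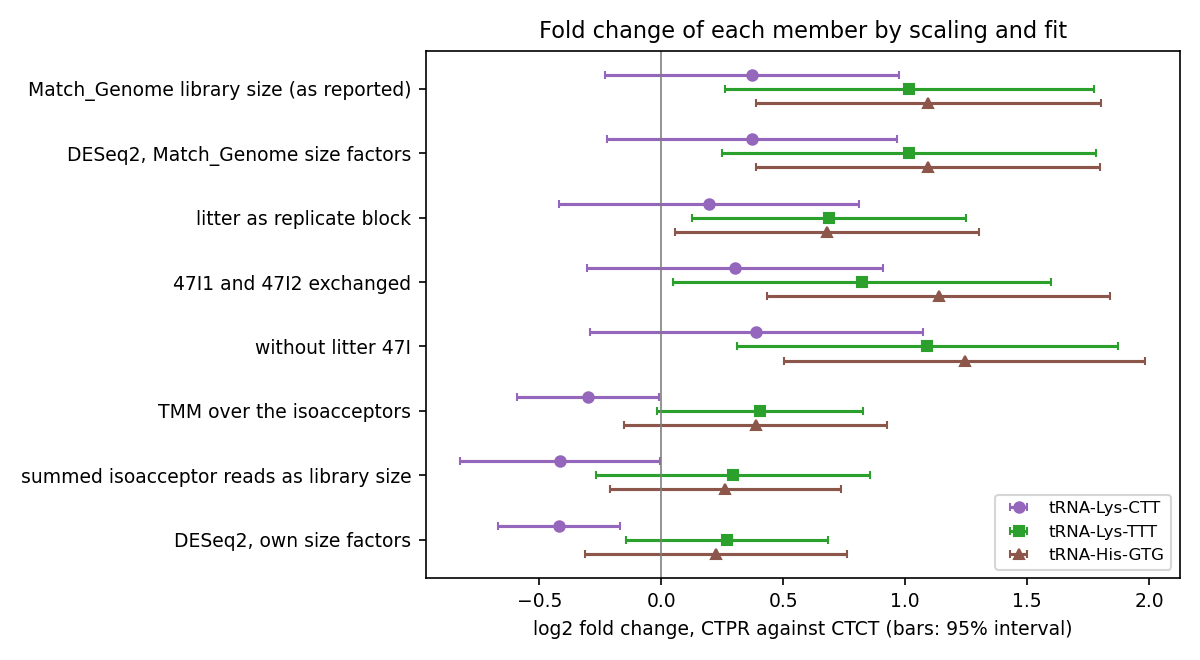
Log2 fold change of each member between CTPR and CTCT mice under 8 fits, with bars of the 95% interval. The upper 5 fits scale on genome-matching reads and place tRNA-Lys-TTT and tRNA-His-GTG to the right of 0, whereas the lower 3 scale on tRNA reads and place tRNA-Lys-CTT to the left of 0, at −0.30, −0.41 and −0.42.

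The share of the summed isoacceptor reads in each mouse needs no library size. tRNA-Lys-CTT held from 3.03% to 11.7% in CTCT mice, with a median of 7.17%, and from 3.05% to 7.38% in CTPR mice, with a median of 5.54%. A single CTPR mouse of 9 was above the CTCT median, as were 1 of 9 PRCT and 1 of 10 PRPR mice. The means of CTPR and CTCT mice differed by −1.81 percentage points (two-sided exact permutation test, P = 0.111, adjusted P = 0.844). Of the same summed reads, tRNA-Gly-GCC held 47.4% ± 10.6 in CTCT mice (SD, n = 10) and 56.3% ± 9.07 in CTPR mice (SD, n = 9). A rise in the share of 1 tRNA lowers the shares of others.

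tRNA-His-GTG held from 0.919% to 1.71% in CTCT mice, with a median of 1.35%. In CTPR mice it held from 0.701% to 3.43%, with a median of 1.45% (difference in means 0.266 percentage points, exact permutation test, P = 0.387, adjusted P = 0.904). Mice outside the CTCT range were found in each of the other groups, with 2 below and 4 above it among 9 CTPR mice, 1 and 3 among 9 PRCT mice and 2 and 5 among 10 PRPR mice. The spread itself was not tested. tRNA-Lys-TTT held 0.244% ± 0.123 (SD, n = 10) in CTCT and 0.297% ± 0.145 (SD, n = 9) in CTPR mice (difference 0.0534 percentage points, exact permutation test, P = 0.400, adjusted P = 0.904). Of the 54 isoacceptors, 0% passed a nominal P of 0.05 in this comparison of shares.

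**Figure D3:**
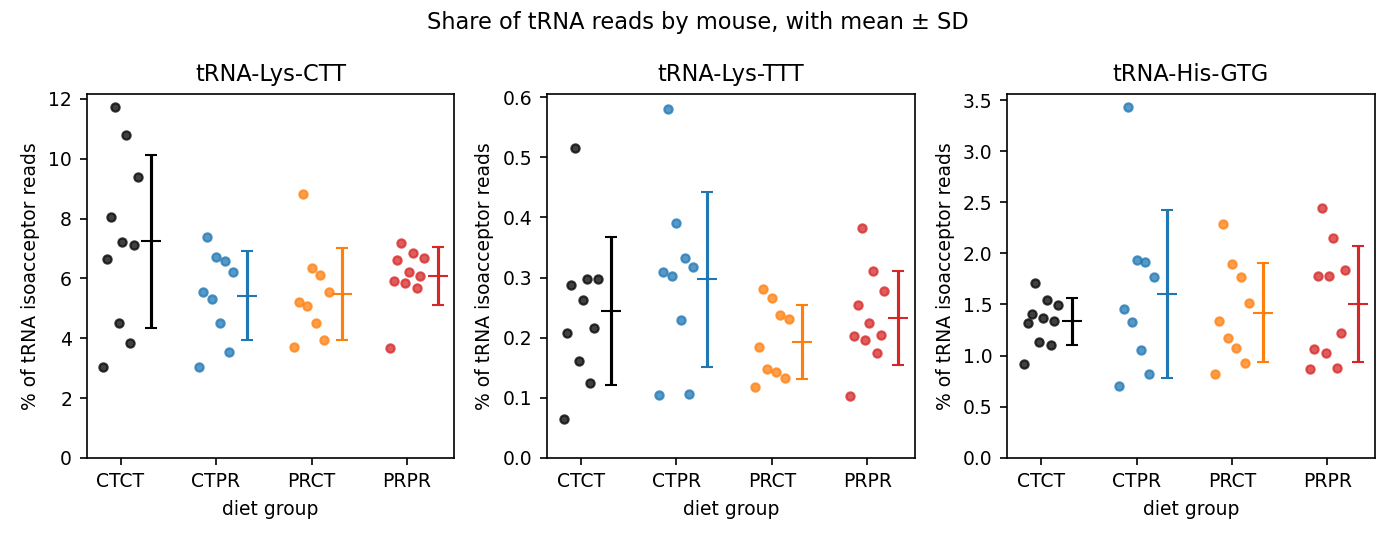
Percentage of the summed tRNA isoacceptor reads held by each member, with 1 point per mouse in each diet group and the mean ± SD beside the points. tRNA-Lys-CTT spans 3.03% to 11.7% in CTCT mice, and a lone CTPR mouse (49K3) carries 3.43% as tRNA-His-GTG.

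The study reported high purity of its sperm, from DNA methylation at imprinting control regions and a representative RNA trace lacking ribosomal peaks. Here the libraries were checked for RNA of other cells with lists of marker microRNAs. All 11 germ line microRNAs had reads, with a summed level of 27.9 to 1114 RPM in CTCT mice (median 430) and 140.5 to 1770 in CTPR mice (median 1051). The 5 microRNAs of the epididymal epithelium, mir-200a and its relatives, summed to 38.9 to 1294 RPM in CTCT mice (median 525.5) and 34.2 to 2227 in CTPR mice (median 1044). The 2 of smooth muscle and stroma (mir-145a among them) reached 62.3 to 3048 (median 1457) and 70.7 to 8098 (median 2493). Their medians in PRCT and PRPR mice were 392 and 450.6 for the epithelium and 1213 and 1080 for muscle and stroma.

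The microRNAs of red cells stayed at or below 45.7 RPM in every mouse, those of white cells at or below 64.2, and that of liver at or below 3.603. The white cell median was 13.9 RPM in CTCT and 29.1 in CTPR mice. Across the 38 mice, tRNA-Lys-TTT moved with the germ line list (Spearman's rho 0.91), with white cells (0.85), with muscle and stroma (0.81) and with the epithelium (0.78). tRNA-Lys-CTT gave 0.84, 0.80, 0.71 and 0.67 with the same lists, and tRNA-His-GTG 0.46, 0.38, 0.22 and 0.18. For tRNA-Lys-TTT, tRNA-Lys-CTT and tRNA-His-GTG, red cells gave 0.49, 0.50 and 0.02 and liver 0.21, 0.20 and 0.16. By share of tRNA reads, the epithelial list went with tRNA-Lys-TTT (0.56) and against tRNA-His-GTG (−0.44). The same directions were seen for muscle and stroma (0.54 and −0.46), germ line (0.49 and −0.32), red cells (0.45 and −0.36) and white cells (0.43 and −0.43). Liver gave 0.15 and −0.04. These points share their library and its composition, and the part of other cells in the differences was not tested. In such bulk samples, fewer cells of a type and less RNA per cell cannot be told apart.

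Pre-weaning restriction, alone or continued, gave no call for the levels or shares of the members. The contrasts of PRCT and PRPR with CTCT use the same 10 control mice as that of CTPR. tRNA-His-GTG had a median of 1314 RPM in PRCT mice (702 to 2901) and 1607 in PRPR mice (529 to 3410), against 1056 in CTCT mice. Its log2 fold changes from CTCT were 0.36 ± 0.36 in PRCT mice (edgeR, P = 0.316, adjusted P = 0.968) and 0.47 ± 0.35 in PRPR mice (edgeR, P = 0.183, adjusted P = 0.876). tRNA-Lys-TTT ranged from 69.4 to 419 RPM in PRCT mice and from 100.1 to 670 in PRPR mice, with medians of 242 and 244. Its log2 fold changes were 0.04 ± 0.39 and 0.38 ± 0.38 (edgeR, P = 0.912 and 0.324, adjusted P = 1.0 and 0.876).

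tRNA-Lys-CTT had medians of 6047 RPM in PRCT mice (3080 to 9121) and 7013 in PRPR mice (3566 to 12712), close to the 7082 of CTCT mice. Its log2 fold changes were −0.07 ± 0.31 and 0.15 ± 0.30 (edgeR, P = 0.818 and 0.609), and both intervals, −0.68 to 0.53 and −0.43 to 0.74, leave room for changes of a moderate size. Over all isoacceptors, 1.85% passed a nominal P of 0.05 for PRCT and 0% for PRPR against CTCT, in edgeR as in DESeq2 with the same library sizes.

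Between PR litters' own post-weaning diets, PRPR against PRCT, the log2 fold changes were 0.11 ± 0.36 for tRNA-His-GTG, 0.33 ± 0.39 for tRNA-Lys-TTT and 0.23 ± 0.31 for tRNA-Lys-CTT (edgeR, P = 0.762, 0.395 and 0.468), and 0% of the 54 isoacceptors passed. In PRCT mice tRNA-Lys-CTT held 5.48% ± 1.54, tRNA-His-GTG 1.42% ± 0.489 and tRNA-Lys-TTT 0.193% ± 0.0618 (SD, n = 9), and in PRPR mice 6.08% ± 0.975, 1.504% ± 0.563 and 0.233% ± 0.0776 (SD, n = 10). No share of a member passed a nominal P of 0.05 in any of these contrasts, where 3.70% of isoacceptors passed for PRCT against CTCT, 0% for PRPR against CTCT and 3.70% for PRPR against PRCT.

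Whether the response to post-weaning restriction depended on the dam's diet was tested as a difference of effects, (CTPR − CTCT) − (PRPR − PRCT). For tRNA-His-GTG the effect was 0.98 ± 0.51 (SE) greater on the log2 scale in CT litters, which did not pass (edgeR, P = 0.0590, adjusted P = 0.496). It passed the nominal line when the litter with contradictory group labels was left out (1.13, P = 0.0316) or exchanged (1.03, P = 0.0476). The difference was 0.68 ± 0.55 for tRNA-Lys-TTT and 0.15 ± 0.44 for tRNA-Lys-CTT (edgeR, P = 0.216 and 0.737), and 3.70% of the isoacceptors passed. For tRNA-Lys-CTT it turned negative on tRNA-based scales, down to −0.56 (P = 0.0631) with summed isoacceptor reads and to −0.39 (P = 0.0295) with the size factors of DESeq2. On the scale of shares, the effect on tRNA-Lys-CTT was 2.41 percentage points lower in CT than in PR litters, a difference of effects of −2.41 (permutation test, P = 0.0569, adjusted P = 0.554), and 5.56% of the isoacceptors passed.

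In the 8 CT litters with both mice, the members differed in the same direction but by less than over all mice of the 2 groups. Without pairing, edgeR gave 0.80 for tRNA-Lys-TTT, 0.87 for tRNA-His-GTG and 0.16 for tRNA-Lys-CTT in these litters. The smaller values are thus not due to the pairing alone. tRNA-Lys-TTT exceeded its level in the CTCT littermate in 6 of 8 CTPR mice, by 0.69 ± 0.90 on the log2 scale (SD, n = 8 litters, two-sided exact sign-flip permutation test, P = 0.0781). tRNA-His-GTG was higher in 5 of 8, by 0.68 ± 1.29 (exact sign-flip test, P = 0.180), and tRNA-Lys-CTT in 6 of 8, by 0.19 ± 0.60 (P = 0.375 by the same exact test). Among isoacceptors, 28.6% of 42 passed this test, whose smallest possible P is 0.00781. With litter as a block in edgeR, tRNA-Lys-TTT (0.69 ± 0.29, SE, P = 0.0168) and tRNA-His-GTG (0.68 ± 0.32, SE, P = 0.0330) were among 21 of 52 isoacceptors past the nominal line. That fit pools its estimate of the spread over isoacceptors, whereas the sign flips use only each isoacceptor's own differences between littermates. In PR litters each member was higher in the PRPR mouse in 7 of 9 litters, though not in the same ones, as tRNA-His-GTG was lower in 31A and 51O and both lysine tRNAs in 51O and 59L. The mean log2 differences there were 0.32 ± 0.90 for tRNA-Lys-TTT, 0.19 ± 0.62 for tRNA-Lys-CTT and 0.11 ± 0.80 for tRNA-His-GTG (SD, n = 9 litters, exact sign-flip P = 0.320, 0.387 and 0.691), and 2.38% of isoacceptors passed.

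The balance of the 2 lysine tRNAs was examined as the ratio of their reads within each mouse, which needs no library size. In CTCT mice there were 20.9 to 69.5 reads of tRNA-Lys-CTT for each read of tRNA-Lys-TTT (median 29.5), and in CTPR mice 11.4 to 33.9 (median 20.5). The medians were 27.5 in PRCT mice and 31.0 in PRPR mice. The log2 ratio of tRNA-Lys-TTT to tRNA-Lys-CTT was −4.96 ± 0.54 in CTCT mice (SD, n = 10) and −4.32 ± 0.50 in CTPR mice (SD, n = 9), so that tRNA-Lys-TTT gained 0.64 on tRNA-Lys-CTT (two-sided exact permutation test, P = 0.0143, adjusted over 5 comparisons 0.0716). Between littermates the gain was 0.50 ± 0.76, in 6 of 8 litters, and did not pass (SD, n = 8, exact sign-flip test, P = 0.102), while the same 16 mice taken without their pairing gave P = 0.0458 (exact permutation test). The gain was 0.57 with 47I1 and 47I2 exchanged (permutation test, P = 0.0345) and 0.47 without the mice with incomplete totals (P = 0.0476 by permutation). Neither share passed by itself. Between all CTPR and CTCT mice, tRNA-Lys-CTT (log2 fold change 0.37 in edgeR) lay below the median of all 54 isoacceptors (0.71). tRNA-Lys-TTT, at 1.02, lay above that median. Other tRNAs thus also rose more than tRNA-Lys-CTT, and whether the gain is particular to the lysine pair was not tested.

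In litter 57P the log2 ratio was −5.35 in the CTCT mouse and −3.51 in the CTPR mouse, and in litter 35F −5.16 and −3.76. The other 6 CT litters differed by between −0.48 and 0.42. For PRCT against CTCT the difference was 0.11 (exact permutation test, P = 0.612), for PRPR against CTCT 0.20 (permutation test, P = 0.395), for PRPR against PRCT 0.08 (exact permutation test, P = 0.664) and for the difference of effects 0.56 (permutation test, P = 0.0942).

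**Figure D4:**
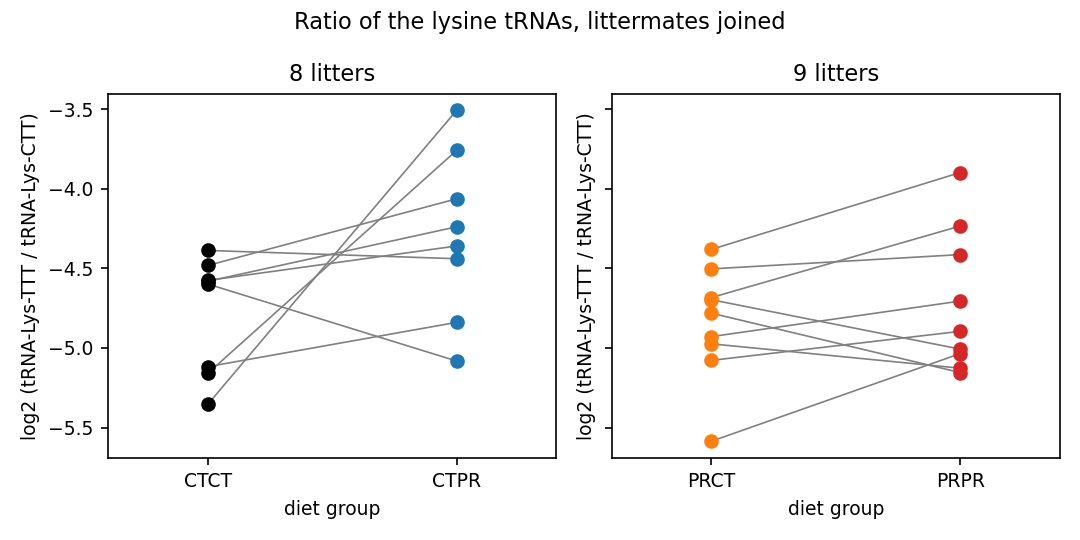
Log2 ratio of tRNA-Lys-TTT to tRNA-Lys-CTT reads, with 1 point per mouse and a line joining littermates, for 8 litters of CT dams and 9 litters of PR dams. The steepest lines belong to litters 57P (−5.35 to −3.51) and 35F (−5.16 to −3.76), and 6 of 8 lines rise in the CT litters.

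The files also list which reads began at the 5′ end, stopped at the 3′ end or carried the CCA tail that is added to mature tRNAs. Reads of tRNA-Lys-CTT were listed as 5′ end in 85.3% ± 3.32 of cases (SD, n = 38), those of tRNA-Lys-TTT in 71.3% ± 5.81 and those of tRNA-His-GTG in 67.3% ± 10.6. The 3′ end was rare, with 30 to 229 reads per mouse for tRNA-Lys-CTT, 0 to 57 for tRNA-Lys-TTT and 0 to 11 for tRNA-His-GTG. tRNA-Lys-TTT had most CCA reads for its size, 4.84% ± 2.25, against 1.00% ± 0.529 for tRNA-Lys-CTT and 0.415% ± 0.367 for tRNA-His-GTG (SD, n = 38, of genome-matching reads plus CCA reads with or without a match). CCA entries do not add up to their class totals, so these percentages are a description. Nearly all CCA reads of tRNA-His-GTG failed to match the genome, 0.410% ± 0.368 of its reads, as against 2.31% ± 1.30 for tRNA-Lys-TTT and 0.447% ± 0.235 for tRNA-Lys-CTT. No member passed a nominal P of 0.05 for the 3′ end, the CCA tail or the CCA reads without a genome match in any comparison. Other reads without a genome match were not counted.

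The 5′ end percentage of tRNA-His-GTG was the most variable of the 3. It ranged from 40.7% to 89.6% in CTCT mice (median 62.2%), from 42.6% to 76.6% in CTPR mice (median 62.7%), from 59.8% to 86.5% in PRCT mice (median 74.6%) and from 65.3% to 86.5% in PRPR mice (median 71.9%). No mouse of a PR dam was below 59.8%, whereas the CT litters reached down to 40.7%. PRPR mice were 9.51 percentage points above CTCT mice (permutation test, P = 0.0481, adjusted P = 0.547), and 7.14% of isoacceptors passed the nominal line in that contrast. This call was lost in 13 of the 20 fits that left out a mouse, with P up to 0.0978 without the CTCT mouse 57P3, and was strongest without the CTCT mouse 07C3 (12.5 points, P = 0.00125 in this permutation test). PRCT mice were 9.29 points above CTCT mice (exact permutation test, P = 0.0825, adjusted P = 0.407, with 9.52% of isoacceptors passing).

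No member's 5′ end percentage passed between the post-weaning diets. CTPR mice differed from CTCT mice by −0.21 points for tRNA-His-GTG, −1.66 for tRNA-Lys-TTT and −2.80 for tRNA-Lys-CTT (exact permutation tests, P = 0.970, 0.555 and 0.124), in a contrast where 14.3% of isoacceptors passed. PRPR and PRCT mice differed by 0.21, 1.45 and 0.36 points for the same members (exact permutation tests, P = 0.952, 0.591 and 0.776), where 2.38% passed. The difference of effects was −0.42, −3.11 and −3.16 points (permutation tests, P = 0.948, 0.414 and 0.150), where 7.14% passed.

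In the 5′ end percentage of tRNA-His-GTG, some littermates lay close together and others far apart. In litter 14A the 5′ end percentage was 86.5% in both mice, in 08G 76.7% and 75.9%, in 39F 74.6% and 74.2%, in 47I 53.7% and 53.0% and in 57P 40.7% and 42.6%. The widest gap was in litter 49K, with 62.8% in the CTCT and 76.6% in the CTPR mouse, and 7 further litters differed by at least 6.27 points in either direction, such as 46I by −11.1 and 02A by 10.2 (PR minus CT after weaning). After subtraction of the group means, the 17 pairs of littermates correlated with Pearson's r = 0.69 (permutation of pairings within the dam's diet, P = 0.00290, adjusted P = 0.0232) and Spearman's rho = 0.51 (P = 0.0393, adjusted P = 0.112). Without the 2 pairs whose mouse on the PR diet after weaning lay farthest from the median of such mice, r was 0.37. The relation thus leans on those litters.

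For tRNA-Lys-TTT the correlation was as strong and did not depend on such pairs, with r = 0.64 (permutation test, P = 0.00893, adjusted P = 0.0397), rho = 0.64 (P = 0.00786, adjusted P = 0.0449) and r = 0.74 without the 2 farthest. tRNA-Lys-CTT gave r = 0.16 (permutation test, P = 0.577, adjusted P = 0.641) and rho = 0.15 (P = 0.591, adjusted P = 0.659). Of 40 isoacceptors with a variable 5′ end percentage, 22.5% passed after adjustment. Shared handling of a litter and its shared parents cannot be told apart with these labels.

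**Figure D5:**
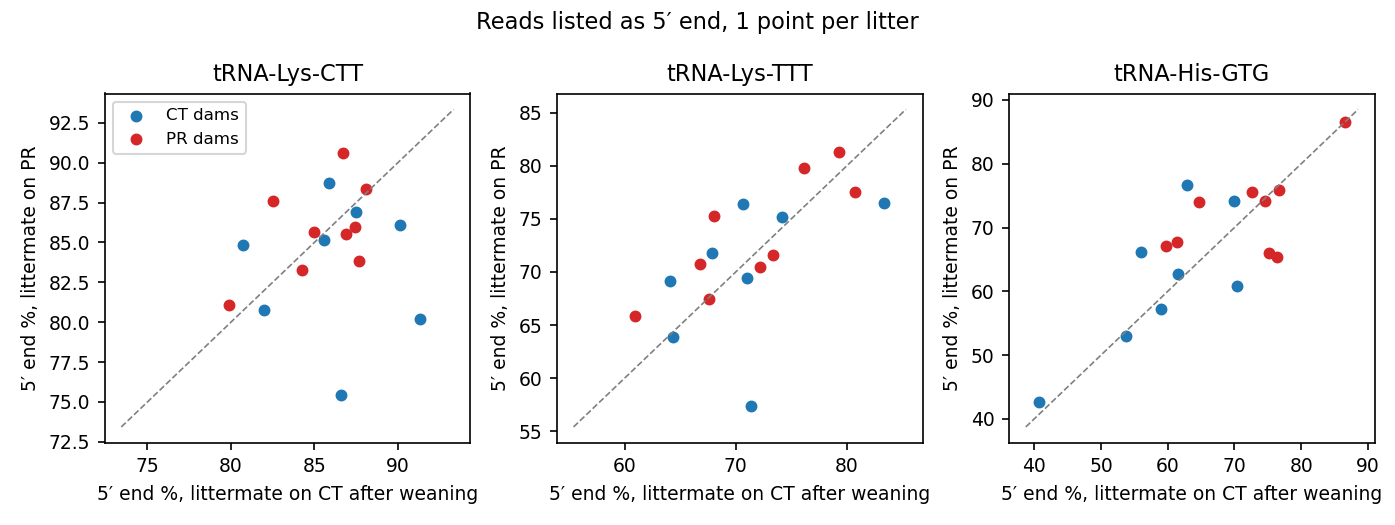
Percentage of reads listed as 5′ end in the littermate on the CT diet after weaning (x axis) against the littermate on the PR diet (y axis), with 1 point per litter (CT dams in blue, PR dams in red) and a dashed line of equality. After subtraction of group means, littermates gave r = 0.64 for tRNA-Lys-TTT, 0.69 for tRNA-His-GTG and 0.16 for tRNA-Lys-CTT.

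Across the 38 mice, the isoacceptors most like tRNA-Lys-CTT in RPM were tRNA-Cys-GCA (Spearman's rho 0.91), tRNA-Lys-TTT (0.91) and tRNA-Met-CAT (0.90). Those most like tRNA-Lys-TTT were tRNA-Ile-AAT, tRNA-Cys-GCA and tRNA-Lys-CTT, each at 0.91. tRNA-His-GTG went with other tRNAs, namely tRNA-Leu-AAG (0.87), tRNA-Thr-TGT (0.82) and tRNA-Ala-CGC (0.80), and its rho with the lysine tRNAs was 0.62 for tRNA-Lys-CTT and 0.60 for tRNA-Lys-TTT. All these values share the genome-matching reads as denominator and the tRNA content of the library, and the median rho with the other 53 isoacceptors was 0.74, 0.72 and 0.61 for tRNA-Lys-CTT, tRNA-Lys-TTT and tRNA-His-GTG.

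Arginine is the remaining basic amino acid. In the contrast of CTPR with CTCT, 3 of its 5 isoacceptors passed a nominal P of 0.05 upwards and none downwards, beside 35.2% of all 54, with a median log2 fold change of 1.07 beside 0.71 for all 54. tRNA-Arg-TCT was higher by 1.23 ± 0.57 (SE, edgeR, P = 0.0360), tRNA-Arg-ACG by 1.08 ± 0.43 (P = 0.0155) and tRNA-Arg-CCT by 1.07 ± 0.40 (P = 0.0103), while tRNA-Arg-TCG stood at 0.87 (P = 0.0727) and tRNA-Arg-CCG at 0.21 (P = 0.562). On tRNA-based scales their median was 0.45 with TMM (1 passing upwards and 1 downwards), 0.38 with summed isoacceptor reads and 0.34 with DESeq2 (in both, none upwards and 1 downwards). A list of 9 tRNAs known for 5′ fragments in sperm was also examined. It does not follow the levels found here, where tRNA-Leu-CAG ranked 28th and tRNA-Gly-TCC 19th. Of these 9, 2 passed, tRNA-Gly-GCC and tRNA-Glu-TTC (0.81 ± 0.33, SE, edgeR, P = 0.0170), beside the same 35.2%. The median of the 9 was 0.44, which turned to −0.19 with TMM, −0.31 with summed isoacceptor reads and −0.33 with the size factors of DESeq2. tRNA-Lys-CTT, at 0.37, lay beside the members of that list that did not pass, such as tRNA-Glu-CTC at 0.44 (P = 0.188) and tRNA-Val-CAC at 0.28 (P = 0.468). In the other comparisons no tRNA-Arg passed, and in the list of 9 only the difference of effects of tRNA-Gly-GCC did.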

How the data were processed

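Small RNA of sperm was sequenced in 38 mice, 1 library each. The authors annotated the reads with SPORTS on the mm10 genome, and the deposited values are raw read counts of each RNA class and its members, not normalised. Aligner settings and database versions are not given in the sources used here. Counts of 54 isoacceptors entered a quasi-likelihood test of edgeR, version 4.0.16 (R 4.3.3; all groups in 1 fit, genome-matching reads as library size, Benjamini-Hochberg over 54). SE is the log2 fold change divided by the root of F. The nominal P of 0.05 follows the study's practice. DESeq2 1.42.0 was an alternative. The tests were first tried on simulated data with known changes. Shares, ratios and end percentages were tested by permutation of mice (exact below 10 mice in a group, otherwise 100000 resamples), and littermates by sign flips (Python 3.11.15, numpy 2.4.6, scipy 1.17.1). End percentages and littermate tests used isoacceptors with at least 10 reads in every mouse. 5′ end entries are part of an isoacceptor's count, and CCA entries are not.

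Groups follow the labels. A litter is the shared start of the mouse names, and littermates' deviations in log2 RPM correlated with a median r of 0.50 over 42 isoacceptors. Litter was a block in an alternative. All pairs of mice within a group differed by far more than sampling noise (chi-square per degree of freedom at least 143), and intervals over mice cover that spread. Named were the members, the 3 isoacceptors most like each, their neighbours in level, tRNA-Gly-GCC and the tRNA-Arg isoacceptors. The members and lists were chosen with earlier results of these data known. Alternatives were other scalings, filters, tools, groupings and left-out mice. Leaving out each mouse, the older edgeR method, the tests of the same litters without the block and the correlation of littermates were added after seeing the data.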

Additional observations from a re-analysis of the deposited data

Results flagged for a closer look

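In 40 sets of group values (3 members by level, share and 5′ end percentage, and the ratio of the lysine tRNAs), 5 mice stood apart from their group by Dixon's criterion, which chance alone exceeds in about 5% of groups. In the CTPR group, 49K3 held 3.43% of its tRNA reads as tRNA-His-GTG, with the next mouse at 1.94%. In the CTCT group, 09H7 held 0.515% as tRNA-Lys-TTT (next 0.297%), and 83.3% of its tRNA-Lys-TTT reads were 5′ end (next 74.2%). In the PRPR group, 51O3 held 3.67% as tRNA-Lys-CTT (next 5.69%), and 14A5 had 86.5% of its tRNA-His-GTG reads at the 5′ end (next 75.9%).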

How the results depend on the processing

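The 19 isoacceptors past a nominal P of 0.05 between CTPR and CTCT mice became 5 with TMM factors (2 higher, 3 lower), 2 with summed isoacceptor reads as library size, 4 with the size factors of DESeq2 (all lower), 14 with 47I1 and 47I2 exchanged and 12 without the mice with incomplete totals. They ranged from 14 to 28 when each mouse was left out. Across these removals the log2 fold change of tRNA-Lys-TTT ran from 0.89 to 1.22 and that of tRNA-His-GTG from 0.82 to 1.22, all past the nominal line. On tRNA-based scales neither passed (TMM 0.40 and 0.39, DESeq2 0.27 and 0.22), and tRNA-Lys-CTT turned to −0.30 (TMM), −0.41 (summed reads) and −0.42 (DESeq2). These scalings remove a shift common to all tRNAs by construction.

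Pairing comes from the mouse names. With litter as a replicate block, 21 of 52 isoacceptors passed between CTPR and CTCT, against 3 in the same litters with no block, and 1 between PRPR and PRCT, against 1 with no block. Paired, the lysine ratio of these litters did not pass (0.50, P = 0.102 by exact sign flips), and with no pairing it did (0.50, P = 0.0458 by exact permutation). The difference in the 5′ end percentage of tRNA-His-GTG between CTPR and CTCT was 2.38 points in the 8 litters with both mice, paired or not, so that its sign changed with the mice left out and not with the pairing. In edgeR the block kept the calls of tRNA-Lys-TTT and tRNA-His-GTG, whereas by sign flips on log2 RPM neither passed (exact P = 0.0781 and 0.180).

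The few calls of the other comparisons were unstable. Between PRCT and CTCT the main count of 1 became 3 (TMM), 8 (summed reads) and 2 (without litter 47I), and 0 to 3 without each mouse in turn. Between PRPR and CTCT the count of 0 became 1 (TMM), 1 (DESeq2 size factors), 1 (only the 2 groups fitted) and 2 (without 47I), and 0 to 3 without each mouse. Between PRPR and PRCT it became 3 (TMM), 1 (summed reads), 2 (DESeq2 size factors), 1 (only the 2 groups), 2 (without 47I) and 1 (without incomplete mice), and 0 to 2 without each mouse. For the difference of effects the count of 2 became 0 (TMM), 4 (DESeq2 size factors), 5 (without 47I) and 1 (without incomplete mice), and 0 to 7 without each mouse. Tested entry by entry, with 5′ end, 3′ end and genome-matching CCA entries as features of their own, 45 of 185 entries passed between CTPR and CTCT. There were 7 between PRCT and CTCT, 4 between PRPR and CTCT, 5 between PRPR and PRCT and 7 for the difference of effects. Among the 54 entries of whole isoacceptors in that fit, 17, 1, 0, 0 and 2 passed.

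Log2 fold changes that changed sign without passing were those of tRNA-Lys-CTT in PRCT against CTCT (0.012 without 47I), in PRPR against CTCT (−0.14 with TMM, −0.25 with summed reads, −0.14 with DESeq2) and in PRPR against PRCT (−0.03 with DESeq2), of tRNA-Lys-TTT in PRCT against CTCT (−0.021 with TMM, −0.33 with summed reads, −0.000625 with DESeq2, −0.079 with 47I exchanged) and in PRPR against CTCT (−0.058 with summed reads), and of tRNA-His-GTG in PRPR against PRCT (−0.079 with TMM, −0.095 with DESeq2, −0.047 without incomplete mice). The difference of effects of tRNA-Lys-CTT turned to −0.30 (TMM), −0.56 (summed reads) and −0.39 (DESeq2, past the nominal line), and that of tRNA-His-GTG passed with 47I exchanged (1.03) or left out (1.13). Shares changed sign for tRNA-Lys-TTT in PRPR against CTCT (0.041 on the log2 scale) and in the difference of effects (−0.0058 points, 47I exchanged), and for tRNA-His-GTG in PRPR against PRCT (−0.083 points without incomplete mice, −0.028 on a denominator without tRNA-Gly-GCC).

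The lysine ratio of CTPR against CTCT ran from 0.51 to 0.73 without each mouse in turn, past P = 0.05 each time. The other ratios ran from −0.016 (without 07C3) to 0.21 for PRCT against CTCT, 0.066 to 0.26 for PRPR against CTCT, −0.014 (without 40H3, and −0.010 without 23F4) to 0.14 for PRPR against PRCT and 0.43 to 0.65 for the difference of effects, which passed without 23F4 (P = 0.0437) or 40H3 (P = 0.0385) in permutation tests. Without incomplete mice they were −0.028 for PRCT and −0.034 for PRPR against CTCT and −0.0055 for PRPR against PRCT. With 47I exchanged, 1 member passed among the 3′ end, CCA and unmatched CCA percentages. The cause of these changes was not tested. Of the results other than those counts and ratios, 272 kept direction and side of the threshold, 25 changed sign, 6 lost a call, 2 gained one and 1 count moved.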
